A study of Mus musculus with 12 samples.

Results

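The cytosolic ribosomal protein genes were followed across 12 expression arrays as the probe sets whose only gene symbol in the platform annotation is Rps or Rpl followed by a number, with an optional short suffix, or is Rplp0, Rplp1, Rplp2 or Rpsa. The rule used symbols alone and no measured value, and it left out the ribosomal S6 kinases. It took 100 of the 22690 probe sets, for 48 genes, 22 of the small and 26 of the large ribosomal subunit. A further 102 probe sets carried a matching symbol among several and were not members, so 27 matching genes, among them Rpl3, Rpl10 and Rplp1, had no member. The arrays measured total RNA of 5CC7 T cells, which carry a transgenic receptor for a moth cytochrome c peptide, moved into B10.A mice. The hosts received, by tail vein, 2 µg of MCC, 0.2 µg of MCC, 2 µg of 102S or 0.2 µg of 102S in PBS, with 3 arrays per group. MCC is the strong and 102S the weak agonist of this receptor, and 48 h after the peptide the transferred cells were sorted from pooled lymph nodes. Unstimulated cells were not analysed here, so each group is set only against another stimulated one. Nothing in the labels says that replicates came from separate animals, so the p-values speak to the spread among these arrays, part of which may be technical.

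Ribosomal proteins join the ribosomal RNAs to form the small subunit, which reads the message, and the large subunit, which links the amino acids. Many of their messages begin with a terminal oligopyrimidine tract, a C followed by an unbroken run of C and T, through which the kinase complex mTORC1 and the protein Larp1 control their translation. T cells that respond to antigen make many ribosomes before they divide, and Rpl22 is known in mice for its part in the development of T cells of the alpha beta lineage.

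The starts of 8 member genes are shown because their messages carry the paralogue pairs and the strongest differences described here. They are 30 bases of RefSeq promoters of the build GRCm38.p6, 15 on each side of the annotated start, on the sense strand, which reads as the message does, with a C followed by at least 5 bases that are each C or T in capitals.
Rpl22, chr4:152325711-152325740, plus strand: ttcgccctgggaaaagcaatagctggccga
Rpl22l1, chr3:28805493-28805522, plus strand: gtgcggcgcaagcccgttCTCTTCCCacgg
Rps27, chr3:90213634-90213663, minus strand: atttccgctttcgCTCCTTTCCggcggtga
Rps27l, chr9:66946071-66946100, plus strand: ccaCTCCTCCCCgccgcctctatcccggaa
Rpl13a, chr7:45128731-45128760, minus strand: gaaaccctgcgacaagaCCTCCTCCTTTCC
Rpl12, chr2:32961697-32961726, plus strand: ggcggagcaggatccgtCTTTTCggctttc
Rpl41, chr10:128549154-128549183, minus strand: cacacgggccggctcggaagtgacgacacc
Rps24, chr14:24490663-24490692, plus strand: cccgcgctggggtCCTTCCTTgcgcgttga
Such a run lay in this window in 23 of the 42 member genes with a promoter in the table (54.8%), against 22.4% of all 27025 promoters. With 50 bases on each side it lay in 37 of 42 (88.1%), against 58.3% of all. Only the sense strand was searched, annotated starts are approximate, and a match is no measurement of the message's true first base. Rpl22 had no run in the window while its paralogue Rpl22l1 had one of 8 bases.

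The T cell label fitted its markers, since all 8 measured of 9 T cell markers lay above the intensity filter (log2 4.47), among them Cd3e at 10.01 to 10.23 log2. CD8 T and NK markers, with 6 of 7 above the filter and Ncr1 below it, summed to 36.05 to 36.84 log2 after 2 µg of MCC and 38.44 to 42.07 after 0.2 µg of MCC, against 41.05 to 41.44 after 2 µg of 102S and 43.56 to 45.74 after 0.2 µg of 102S. B cell markers, 3 of 6 above the filter with Cd79a, Blk and Ms4a1 below, summed to 35.22 to 35.48 and 35.31 to 35.96 log2 in the same MCC groups, against 33.49 to 33.84 and 33.12 to 36.67 with 102S. Single markers did not all follow these sums. At 0.2 µg, Cd74 averaged 7.23 log2 with MCC against 5.84 with 102S, Cd79b 5.73 against 4.47 and Ighm 10.47 against 11.45. Klrd1 averaged 4.65 log2 after 2 µg of MCC and 8.63 after 0.2 µg of 102S. In these groups Gzma averaged 4.28 and 5.96, and Prf1 5.19 and 6.56. Cd8a (5.55 and 5.97), Cd8b1 (7.42 and 7.88) and Nkg7 (6.24 and 6.29) differed less. The sums therefore do not show a shift of a whole cell type. Replicate 1 of every group stood apart: Xist, which marks the inactive X of female cells, read 11.72 to 12.27 log2 there and 4.05 to 5.10 on the 8 other arrays, and the Y-linked Eif2s3y 3.31 to 4.26 against 8.75 to 9.37. By these transcripts the cells of replicate 1 were female and those of the other arrays male, so replicate 1 was not a technical repeat of the others. The 3′ signal of the β-actin control exceeded its 5′ signal, a measure of RNA integrity, by 0.50, 0.67 and 0.72 log2 after 2 µg of MCC, 0.74, 1.78 and 2.33 after 0.2 µg of MCC, 0.81, 1.30 and 1.62 after 2 µg of 102S and 0.76, 0.90 and 2.35 after 0.2 µg of 102S. Those values are set beside the results below, and their part in any of them was not tested except where a measurement is given. In sorted bulk cells a smaller share of cells and less RNA per cell cannot be told apart.

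The members gave some of the strongest signals on the array and varied little. Of the 100 member probe sets, 89 passed the filter, for 46 genes. The 11 others read 2.95 to 4.47 log2 and left Rps4l and Rpl3l, paralogues of Rps4x and Rpl3, with no tested probe set. The 89 had a median of 13.51 log2, against 6.96 over all 13576 probe sets tested, and 64 of them (71.9%) read log2 12 or more, where the whole table ended at 14.74. Among the 64, the median SD over the 12 arrays was 0.0844 log2, close to the 0.0961 of all 241 probe sets that bright. The 10 members between log2 8 and 12 had 0.235, against 0.246 for all probe sets of that range, and the 15 dimmer ones 0.345, against 0.289. Signals depend on the probes of each set, so they were not used to rank transcripts.

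**Figure D1:**
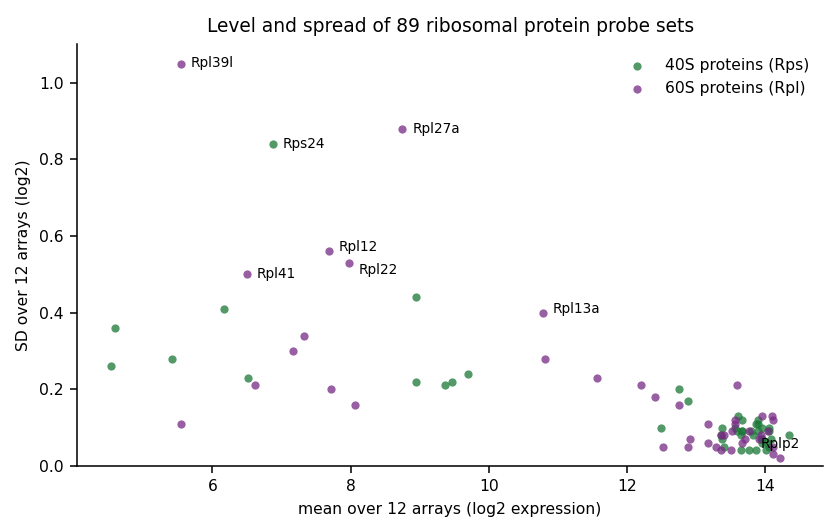
Mean over 12 arrays (x axis, log2 expression) and SD over the same arrays (y axis, log2) of the 89 tested probe sets, with small-subunit genes in green and large-subunit genes in purple. Most lie at log2 12 or more with an SD of at most 0.212, while probe sets of Rpl39l, Rpl27a, Rps24, Rpl12 and Rpl41 at lower signal spread more.

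The steadiest genes included the acidic stalk protein Rplp2, whose 12 arrays lay between 14.19 and 14.24 log2 with an SD of 0.016. Rplp0, the protein that anchors the stalk and recruits elongation factors to the large subunit, averaged 14.07 ± 0.03 log2 after 2 µg of MCC and 13.95 ± 0.07 after 2 µg of 102S (SD, n = 3). At 0.2 µg Rplp0 averaged 13.93 ± 0.13 with MCC and 13.86 ± 0.18 with 102S, and the limma adjusted p-values of its peptide differences were 0.456 and 0.667. Rpsa, a small-subunit protein also known as the laminin receptor, read 14.04, 14.16 and 13.96 log2 after 2 µg of MCC, against 13.86, 13.93 and 13.94 after 2 µg of 102S, and its difference of 0.14 ± 0.05 (SE) did not pass (adjusted p = 0.118). Of the X-linked genes, Rps4x averaged 13.99 ± 0.02 log2 after 2 µg of MCC and 14.00 ± 0.02 after 2 µg of 102S, and the single member of Rpl39 averaged 5.51 ± 0.20 and 5.55 ± 0.09. Neither passed the test in any comparison. The 95% interval of the 2 µg peptide difference ran from -0.10 to 0.08 for Rps4x and from -0.35 to 0.27 for Rpl39.

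At 2 µg, 14 member probe sets were lower with MCC than with 102S and 1 was higher, with limma and a Benjamini-Hochberg adjusted p under 0.05 over all 13576 probe sets. These 15 are 16.9% of the 89, against 10.3% of all probe sets tested (6.22% lower, 4.04% higher). With quantile normalization the order of these shares turned, with 5 members called (5.62%) against 11.7% of all. They came from 8 genes: Rps24, Rps25, Rps29, Rps15, Rpl12, Rpl41 and Rpl37a lower, and Rpl13a higher. By subunit, 10 of 46 small-subunit probe sets were lower and 0 higher (21.7% called), and of 43 large-subunit ones 4 were lower and 1 higher (11.6%). The 10 small-subunit calls came from 4 genes, and 5 of the 10 were probe sets of Rps24. An unadjusted p under 0.05 was found for 18 of the 46 (39.1%) and 9 of the 43 (20.9%), against 23.5% of all probe sets. The median difference was small, -0.06 log2 for the members and -0.04 for all probe sets, with 58 of 89 members below 0. The groups did not overlap for 43 members (48.3%), against 32.2% of all probe sets. With 1 probe set per gene, the one of highest mean, 5 of 46 genes were lower and 0 higher, 10.9% against 11.3% of all genes, and 14 of the 46 (30.4%) had an unadjusted p under 0.05, against 24.7% of all genes.

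This count changed with the arrays included. The share of all probe sets called on the same omissions is not given here, nor for the other comparisons below. A general loss of calls with fewer arrays therefore cannot be told apart. It was 4 when any one array of 2 µg of 102S was left out, 8 without replicate 1 or 2 and 9 without replicate 3 of 2 µg of MCC, 7 without replicate 2 and 9 without replicate 3 of 0.2 µg of MCC, and 8 without replicate 2 of 0.2 µg of 102S. Without replicate 1 of every group it was 3, of 1 higher and 2 lower. Calls for Rpl12, for Rpl13a and for the dimmest tested probe set of Rps24 held under all 9 alternatives and all 12 single omissions.

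**Figure D2:**
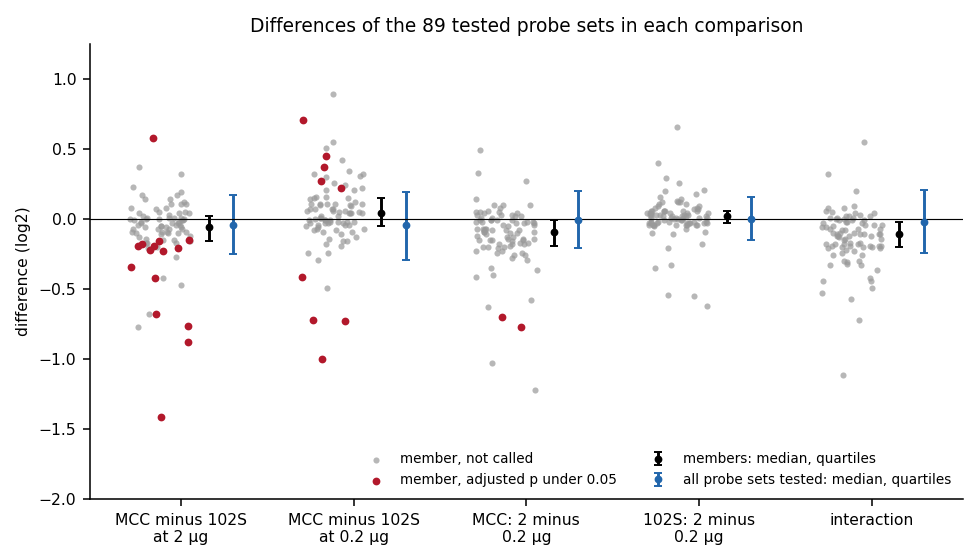
Difference in log2 (y axis) of each of the 89 tested member probe sets in 5 comparisons (x axis), red where the adjusted p is under 0.05. Black and blue points with bars give the median and quartiles of the members and of all 13576 probe sets tested; the members' medians lie between -0.11 and 0.04.

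Rpl12, a protein at the base of the large-subunit stalk, gave the largest difference among the probe sets whose calls held at both doses. Its only member probe set averaged 7.69 log2 over the 12 arrays, so no brighter member of the gene could be set beside it. This probe set read 7.16, 6.87 and 6.79 log2 after 2 µg of MCC, against 7.97, 7.76 and 7.72 after 2 µg of 102S. At 0.2 µg it read 7.76, 7.41 and 7.76 log2 with MCC, against 8.60, 8.30 and 8.22 with 102S. The groups did not overlap at either dose, the 3 arrays of 2 µg of MCC were the lowest of the 12 and those of 0.2 µg of 102S the highest. This probe set of Rpl12 was 1.84-fold lower with MCC at 2 µg (-0.88 ± 0.16 log2, SE; limma adjusted p = 0.00422) and 1.66-fold lower at 0.2 µg (-0.73 ± 0.16; adjusted p = 0.00861). It was also 1.63-fold lower after 2 µg than after 0.2 µg of MCC (-0.70 ± 0.16; adjusted p = 0.0466), a call kept under 5 of 9 alternatives and on 2 of 12 single omissions.

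Rps25, a small-subunit protein known for its role in initiation at internal ribosome entry sites, showed the same direction at 2 µg. Its only member probe set averaged 8.95 log2 over the 12 arrays, with no brighter member of the gene beside it. This probe set read 8.30, 8.44 and 8.28 log2 after 2 µg of MCC, 8.84, 9.04 and 9.45 after 0.2 µg of MCC, 8.92, 8.93 and 9.20 after 2 µg of 102S and 9.17, 9.18 and 9.69 after 0.2 µg of 102S. The arrays of 2 µg of MCC lay below all 9 others, and the other 3 groups overlapped. The difference was -0.68 ± 0.18 log2 (SE) against 102S at 2 µg (limma adjusted p = 0.0292) and -0.77 ± 0.18 against 0.2 µg of MCC (adjusted p = 0.0496). The first of these was lost with quantile normalization and with replicate 1 of every group left out (adjusted p = 0.0638), and it was kept on 6 of 12 single omissions. The second was kept under 3 of 9 alternatives and on 2 of 12 single omissions, with adjusted p up to 0.231 and differences between -0.90 and -0.43 log2.

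Rps24, a small-subunit protein whose human gene is mutated in Diamond-Blackfan anaemia, was lower with MCC at 2 µg in all 5 of its tested probe sets, most in the dimmest. The probe set 1455195_at read 6.21, 5.86 and 5.23 log2 after 2 µg of MCC, against 7.44, 6.84 and 7.25 after 2 µg of 102S, a 2.67-fold lower level (-1.41 ± 0.27, SE; limma adjusted p = 0.00667). The same probe set read 7.20, 6.29 and 6.90 log2 after 0.2 µg of MCC, against 7.92, 7.87 and 7.60 after 0.2 µg of 102S, a 2.00-fold lower level (adjusted p = 0.0302). This 0.2 µg call was lost on the 6 arrays alone and without the 2 arrays of highest β-actin excess, and it was kept on 8 of 12 single omissions (adjusted p up to 0.142). Its groups did not overlap at either dose. The brightest, 1436064_x_at, read 13.92, 13.87 and 14.00 log2 after 2 µg of MCC, against 14.10, 14.09 and 14.08 after 2 µg of 102S, a 1.12-fold lower level (adjusted p = 0.0393). The 3 others were 1.16 to 1.27-fold lower at 2 µg, and at 0.2 µg the 4 bright ones did not pass. All 4 bright calls were lost with quantile normalization, without the intensity trend and with replicate 1 of every group left out.

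Rpl41, the smallest protein of the large subunit, gave opposite directions in its probe sets. The dim 1433530_at read 5.95, 5.70 and 5.86 log2 after 2 µg of MCC, against 6.56, 6.50 and 6.74 after 2 µg of 102S, a 1.70-fold lower level (-0.76 ± 0.15, SE; limma adjusted p = 0.00602). With 0.2 µg of MCC it read 6.44, 6.25 and 6.55 log2, against 7.20, 6.95 and 7.27 after 0.2 µg of 102S, a 1.65-fold lower level (adjusted p = 0.00562). The bright 1455578_x_at read 14.10, 14.22 and 14.20 log2 after 0.2 µg of MCC, against 13.90, 13.99 and 13.99 after 0.2 µg of 102S, a 1.16-fold higher level (adjusted p = 0.0196), although the 2 µg difference of 0.14 ± 0.05 did not pass (adjusted p = 0.137). A further dim probe set of Rpl41, 1454639_x_at, was 1.34-fold lower with MCC at 2 µg (adjusted p = 0.0483) and 1.33-fold lower at 0.2 µg (adjusted p = 0.0431). Each of its calls was kept under 4 of 9 alternatives, the 2 µg call on 0 and the 0.2 µg call on 2 of 12 single omissions. The call in the bright probe set was lost with each array centred on its median, without the intensity trend, on the 6 arrays alone and without the 2 arrays of highest β-actin excess. The dim 1433530_at did not pass at either dose with replicate 1 of every group left out. Rpl41 was the single gene of 20 with several tested probe sets that was called both ways in 1 comparison.

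Rpl13a, a large-subunit protein also known from studies of human monocytes as a translational silencer, was higher with MCC in its dimmer probe sets. The probe set 1433928_a_at read 11.09, 11.21 and 11.44 log2 after 2 µg of MCC, against 10.51, 10.79 and 10.70 after 2 µg of 102S, a 1.50-fold higher level (0.58 ± 0.11, SE; limma adjusted p = 0.00662). With 0.2 µg it read 10.93, 11.06 and 10.93 log2 with MCC, against 10.11, 10.29 and 10.40 with 102S, a 1.63-fold higher level (0.71 ± 0.11; adjusted p = 0.00118). All 6 MCC arrays lay above all 6 arrays of 102S. A second probe set of Rpl13a, 1455001_x_at, was 1.37-fold higher with MCC at 0.2 µg (adjusted p = 0.0122). The brightest, 1455485_x_at, averaged 14.08 ± 0.01 log2 after 2 µg of MCC and 14.11 ± 0.03 after 2 µg of 102S, and did not pass at either dose.

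**Figure D3:**
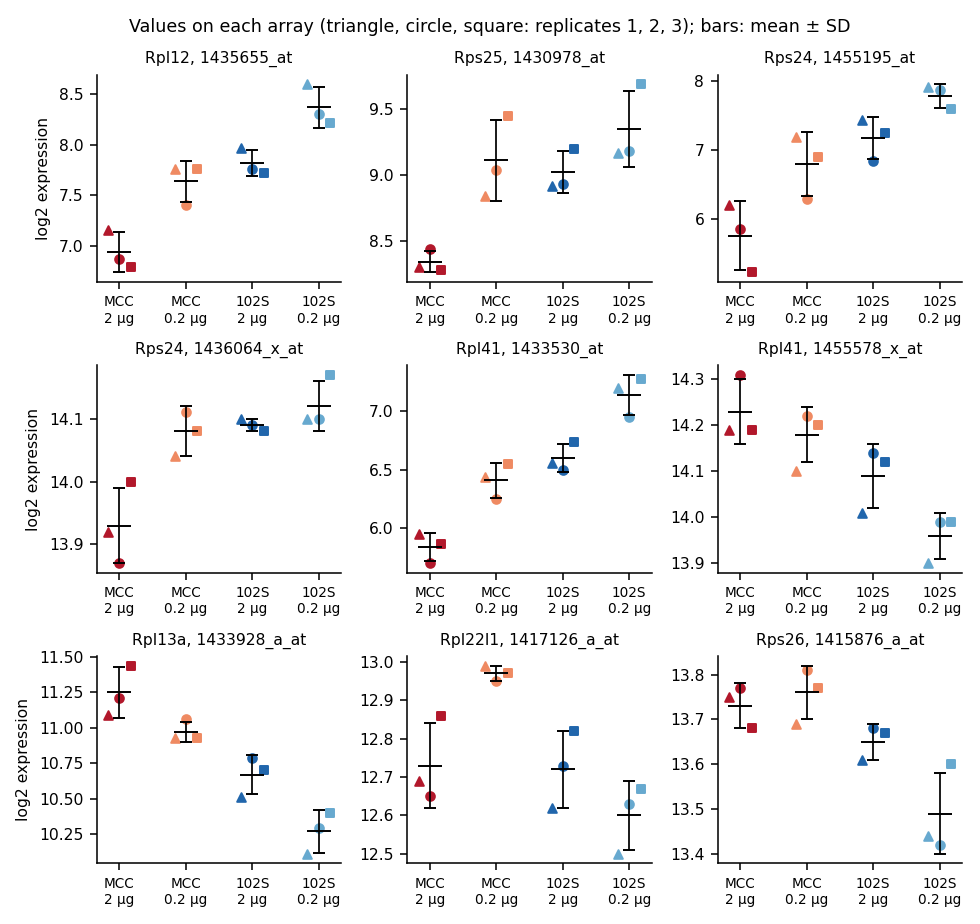
Log2 expression (y axis) of 9 member probe sets on each of the 12 arrays by group (x axis), with the mean and SD over 3 arrays in black; each panel has its own scale. In the panels of Rpl12 and of the dim probe sets of Rps24 and Rpl41 the arrays of 2 µg of MCC lie lowest, and in the Rpl13a panel they lie highest.

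The remaining 5 calls at 2 µg were in bright probe sets and small. The zinc finger protein gene Rps29 was 1.16-fold lower in 1437413_x_at and 1.11-fold lower in 1415833_x_at, which read 14.27, 14.28 and 14.14 log2 after 2 µg of MCC, against 14.37, 14.38 and 14.38 after 2 µg of 102S. Rps15, which lies in the head of the small subunit, was 1.14-fold lower in both of its probe sets (limma adjusted p = 0.0361 each), and 1 probe set of Rpl37a, another zinc finger protein, was 1.14-fold lower. None of these 5 calls held with quantile normalization, without the intensity trend or with replicate 1 of every group left out. With each gene read by its probe set of highest mean, the largest differences among genes that did not pass were in Rpl27a (-0.77 ± 0.58 log2, SE; adjusted p = 0.480), Rps27 (-0.42 ± 0.15; 0.0954), Rpl39l (0.32 ± 0.76; 0.851), Rpl4 (0.23 ± 0.14; 0.346), Rpl37 (-0.21 ± 0.19; 0.564) and Rps14 (-0.20 ± 0.06; 0.0554).

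At 0.2 µg, 5 member probe sets were higher and 4 lower with MCC than with 102S. The 9 are 10.1% of the members, against 14.3% of all probe sets tested (7.84% higher, 6.45% lower). The median difference was 0.04 log2 for the members and -0.04 for all, and with each array centred on its median these were -0.01 and -0.09. The groups did not overlap for 32 members (36.0%), against 28.5% of all. The count was 5 without replicate 1 of 0.2 µg of 102S or without replicate 2 of 0.2 µg of MCC, 19 without replicate 3 of 0.2 µg of 102S and 16 without replicate 1 of 0.2 µg of MCC. Beside the probe sets of Rps24, Rpl12, Rpl41 and Rpl13a described above, Rpl22l1 and Rps26 passed.

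Rpl22l1, the paralogue of Rpl22 that can take its place in the large subunit, read 12.99, 12.95 and 12.97 log2 after 0.2 µg of MCC, against 12.50, 12.63 and 12.67 after 0.2 µg of 102S. It was 1.29-fold higher with MCC (0.37 ± 0.07 log2, SE; limma adjusted p = 0.00500), and the call held under all 9 alternatives and all 12 single omissions. At 2 µg it read 12.69, 12.65 and 12.86 log2 with MCC, against 12.62, 12.73 and 12.82 with 102S, with a difference of 0.01 ± 0.07 and a 95% interval of -0.15 to 0.17. The difference between the doses, -0.36 ± 0.10 log2, did not pass as an interaction (adjusted p = 0.215). Rpl22 itself averaged 12.97 ± 0.08 log2 after 0.2 µg of MCC and 12.86 ± 0.09 after 0.2 µg of 102S in its brighter probe set, which did not pass (adjusted p = 0.286). Rps26, a small-subunit protein that contacts the message ahead of the start codon, read 13.69, 13.81 and 13.77 log2 after 0.2 µg of MCC, against 13.44, 13.42 and 13.60 after 0.2 µg of 102S. It was 1.20-fold higher (adjusted p = 0.00781), a call that held on all 12 single omissions and was lost without the intensity trend and on the 6 arrays alone. By the probe set of highest mean, differences that did not pass were largest in Rpl39l (0.89 ± 0.76 log2), Rpl14 (0.55 ± 0.21), Rps6 (0.42 ± 0.14; adjusted p = 0.0600), Rpl27a (0.34 ± 0.58), Rpl37 (0.32 ± 0.19) and Rps27l (0.30 ± 0.18).

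The calls of the 2 peptide comparisons shared 5 member probe sets in the same direction. The group means compared come from different arrays, but the spread of each probe set was estimated from all 12. The 2 sets of calls are therefore not independent. The calls of 1454639_x_at and the 0.2 µg call of 1455195_at were lost under part of the alternatives, as given above. The 5 were 1455195_at of Rps24, 1433530_at and 1454639_x_at of Rpl41 and the probe set of Rpl12, all lower, and 1433928_a_at of Rpl13a, higher. The 5 are 33.3% of the calls at 2 µg and 55.6% of those at 0.2 µg, against 60.9% and 43.8% for all probe sets tested. No member was called in opposite directions at the 2 doses.

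**Figure D4:**
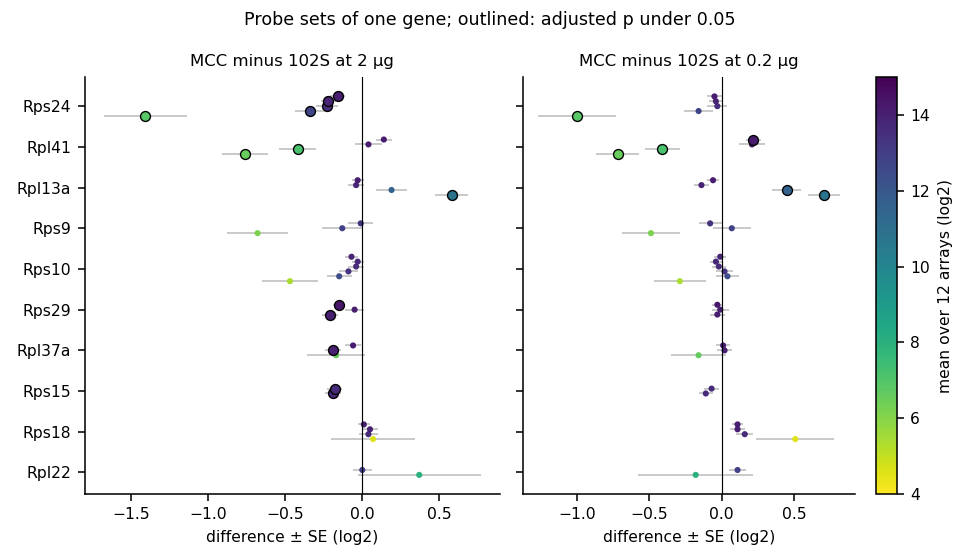
Difference ± SE (x axis, log2) between MCC and 102S at 2 µg (left) and 0.2 µg (right) for each tested probe set of 10 genes (y axis), coloured by its mean signal and outlined where the adjusted p is under 0.05. The dim probe sets of Rps24 and Rpl41 lie far to the left of the bright ones of the same gene, which lie near 0.

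Probe sets of one gene often differed in how far they moved. Over the 20 genes with several tested probe sets, the differences within a gene spanned a median of 0.12 log2 at 2 µg and 0.14 at 0.2 µg, and at most 1.25 and 0.96. At 2 µg 6 of the 20 had at least 1 probe set called and 2, Rps24 and Rps15, had all called; at 0.2 µg 3 had at least 1 and 0 had all. The dim 1426958_at of Rps9, a small-subunit protein, read 5.96, 5.90 and 5.17 log2 after 2 µg of MCC, against 6.35, 6.14 and 6.59 after 2 µg of 102S (limma adjusted p = 0.0522), while its bright probe sets differed by -0.13 and -0.01. Rps10 gave -0.47 ± 0.18 log2 (SE) in its dim probe set (adjusted p = 0.135) and -0.15 to -0.03 in its 5 bright ones. Which part of the transcript each probe set reads was not analysed here. Processed copies of ribosomal protein genes are common in mammalian genomes, so members with a name ending in _x_at or _s_at, 41 of the 89, may read more than 1 transcript.

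Among the 15 members below log2 8, the group means of 8 (53.3%) lay in the order 2 µg of MCC, 0.2 µg of MCC, 2 µg of 102S, 0.2 µg of 102S from lowest to highest, against 14.6% of the 9509 probe sets tested in that range. The opposite order held for 2 of the 15 (13.3%), against 8.20%. Between log2 8 and 12 the first order held for 0 of 10 members, against 13.0% of 3826, and over all levels for 15 of 89 (16.9%), against 14.0% of 13576. At log2 12 or more it held for 7 of 64 members (10.9%), against 9.54% of 241. This order was noticed in the values and has no test here.

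Few members passed the test for dose. With 2 µg against 0.2 µg of MCC, 2 of 89 were lower, Rpl12 and Rps25, and 0 were higher, 2.25% against 1.76% of all probe sets tested (1.05% lower, 0.707% higher), and 28 (31.5%) had an unadjusted p under 0.05, against 17.9% of all. In this comparison 68 of 89 differences lay below 0, 41 of them among the 46 small-subunit probe sets, with a members' median of -0.09 log2 against -0.01 for all. This gap between the medians was not seen with the β-actin difference as a covariate (-0.04 for the members and -0.05 for all), where 62 of 89 members still lay below 0. With each array centred on its median the medians were -0.05 and 0.02. The groups did not overlap for 33 members (37.1%), against 18.5% of all. By the probe set of highest mean, the largest differences that did not pass were in Rpl27a (-1.22 ± 0.58 log2, SE), Rpl14 (-0.63 ± 0.21), Rpl37 (-0.41 ± 0.19) and Rpl4 (0.33 ± 0.14). The count was 0 on 9 of 12 single omissions, 12 without replicate 1 of 0.2 µg of MCC and 3 without replicate 3 of 0.2 µg of 102S. With the replicate number as a block it was 19 (21.3%), against 11.5% of all probe sets.

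With 2 µg against 0.2 µg of 102S, limma called 0 members, against 3.16% of all probe sets tested, and 10 (11.2%) had an unadjusted p under 0.05, against 12.9% of all. By the probe set of highest mean, the largest differences were Rpl39l (0.66 ± 0.76 log2, SE), Rpl12 (-0.55 ± 0.16; adjusted p = 0.0953), Rps25 (-0.33 ± 0.18) and Rps27l (0.20 ± 0.18). The groups did not overlap for 14 members (15.7%), against 20.9% of all. For the interaction of peptide and dose, the peptide difference at 2 µg minus that at 0.2 µg, limma called 0 members, against 0.766% of all, and 13 (14.6%) had an unadjusted p under 0.05, against 8.63% of all. Its median was -0.11 log2 for the members and -0.02 for all, and 70 of 89 members lay below 0. With the β-actin covariate these medians were -0.06 and -0.07, and 68 members lay below 0. These comparisons share arrays with those between the peptides and are not independent of them.

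This β-actin difference moved with the members' means, over a wider range in the dimmer members than in the brighter ones. The mean of the 25 members under log2 12 was 7.52, 7.61 and 7.45 after 2 µg of MCC and 7.66, 7.86 and 7.89 after 0.2 µg of MCC, against 7.62, 7.78 and 7.83 after 2 µg of 102S and 7.67, 7.71 and 7.86 after 0.2 µg of 102S. The 3 arrays of 2 µg of MCC had the lowest means and the 3 lowest β-actin differences of the 12. For the 64 brighter members the means lay between 13.55 and 13.65 log2. They too were lowest after 2 µg of MCC, at 13.57, 13.57 and 13.55. On the 2 arrays of highest β-actin difference, replicate 3 of each 0.2 µg group, they were 13.64. With the β-actin difference as a covariate all 15 calls at 2 µg and all 9 at 0.2 µg were kept, and the counts became 27 and 26 (30.3% and 29.2% of the members), with 24.6% and 26.8% of all probe sets called. With the same covariate the members' medians for the dose of MCC and for the interaction lay within 0.01 log2 of those of all probe sets, as given above. The medians of all probe sets moved too, from -0.01 to -0.05 and from -0.02 to -0.07. For the dose of MCC 62 of 89 members still lay below 0. Since the arrays of 2 µg of MCC had the lowest β-actin differences, group and β-actin difference cannot be told apart here.

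**Figure D5:**
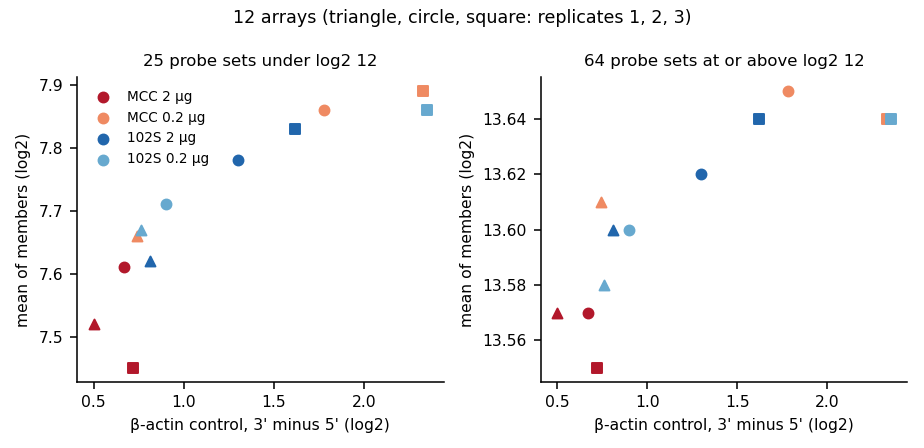
Mean of the members on each of the 12 arrays (y axis, log2) against the excess of 3′ over 5′ signal in the β-actin control (x axis, log2), for the 25 members under log2 12 (left) and the 64 brighter ones (right). Arrays with a larger difference tend to have higher means in both panels, over a narrower range in the right one. The 3 arrays of 2 µg of MCC lie lowest in each.

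Replicate 1 against replicates 2 and 3, fitted over all 4 groups, moved 8 member probe sets, 6 lower and 2 higher, 8.99% against 12.9% of all probe sets tested (2.61% lower, 10.3% higher). Rpl39l, a paralogue of Rpl39 known from male germ cells, read 4.57, 4.80, 4.14 and 4.03 log2 on the replicate 1 arrays of 2 µg of MCC, 0.2 µg of MCC, 2 µg of 102S and 0.2 µg of 102S, and 5.30 to 7.12 on the other 8. It was 3.34-fold lower in replicate 1 (-1.74 ± 0.27 log2, SE; limma adjusted p = 0.0105), with no overlap. Its peptide and dose differences had standard errors of 0.76 and did not pass. The 3 probe sets of Rps27l, a paralogue of Rps27 induced by p53, were 1.24 to 1.30-fold lower in replicate 1, Rpl27a was 2.15-fold lower, and the dim probe set of Rpl22 was 1.71-fold higher. Replicate 1 had β-actin differences of 0.50 to 0.81 log2, against 0.67 to 2.35 in replicates 2 and 3. With that difference as a covariate, Rpl39l was the 1 call of the 8 that passed (1.12% of the members). Calls over all probe sets fell as well, from 12.9% to 0.228%, so the loss was not particular to the members. The count was 0 without replicate 1 of 2 µg of 102S and 21 without replicate 2 of 0.2 µg of 102S, and it was 1 without replicate 1 of either 0.2 µg group, replicate 2 or 3 of 2 µg of 102S, or replicate 2 or 3 of 0.2 µg of MCC.

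Other genes of translation moved in small numbers too. Fau, the source of a small-subunit protein made as a fusion, differed by -0.08 ± 0.05 log2 (SE) at 2 µg and did not pass. Of 22 elongation factor and other oligopyrimidine-tract messages, 3 were higher with MCC at 2 µg and 0 lower, led by the histone chaperone gene Nap1l1 (0.85 ± 0.11; limma adjusted p = 0.000707) and the intermediate filament gene Vim (0.67 ± 0.16; 0.0176), and 3 were higher at 0.2 µg. These are 13.6% of the list at each dose, against 11.3% and 16.1% of all genes at 1 probe set each. Of 24 initiation factors, 1 was higher and 1 lower at 2 µg (8.33%, against 11.3% of all genes). Eif5, which triggers GTP hydrolysis by the initiation complex, was the one lower with MCC at 2 µg and was lower at 0.2 µg too (-0.55 ± 0.12; 0.0124, and -0.62 ± 0.12; 0.00441). Of 22 genes of mTORC1 and translation control, 2 were called at each dose (9.09%, against 11.3% and 16.1% of all genes). Of these, Mxd4, which opposes Myc at its target genes, was higher (1.09 ± 0.18; 0.00235, and 1.76 ± 0.18; 2.94e-05) and Rheb, the activator of mTORC1, was lower (-0.44 ± 0.12; 0.0345, and -0.52 ± 0.12; 0.0125). Larp1, Mtor, Eif4ebp1 and Myc did not pass in any comparison.

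Of 36 ribosome assembly genes, 5 were lower with MCC at 2 µg and 0 higher (13.9%, against 11.3% of all genes at 1 probe set each), with a median of -0.13 log2. They included the small nucleolar ribonucleoprotein genes Nop56 (-0.72 ± 0.14, SE; limma adjusted p = 0.00756) and Nop10 (-0.87 ± 0.21; 0.0218) and the nucleolar gene Gnl3 (-0.71 ± 0.15; 0.0103). The same 3 genes were lower after 2 µg than after 0.2 µg of MCC, by -0.92, -0.98 and -1.0 log2 (8.33% of the list, against 1.92% of all genes). For the dose of 102S 3 of the 36 were lower too, Gar1, Gnl3 and Wdr43 (8.33%, against 3.82%). The list medians were -0.23 log2 for the dose of MCC and -0.38 for that of 102S. Between the peptides at 0.2 µg, 2 of the 36 were higher and 2 lower with MCC (11.1%, against 16.1% of all genes).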

How the data were processed

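The authors' deposited table holds log2 expression of 22690 probe sets on each array. Per the submitters' processing notes, GCOS 1.4 was used. Probe summarisation, background correction and array scaling are not given in the sources used here. Its log2 scale was read from the values, which run from 1.86 to 14.74. RNA (100 ng) was labelled with a 16 h in vitro transcription, per the labels' protocols. Array medians differed by 0.0893 log2, under the 0.15 above which quantile normalization would have been used, so values were kept as deposited.

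The 64 controls and every probe set whose mean fell below the 40th percentile, log2 4.47, were dropped, leaving 13576. The fit (limma 3.58.1, R 4.3.3, lmFit with eBayes and its trend option) had 4 group means and used all 12 arrays (8 residual and 4.16 prior degrees of freedom), with 2-sided tests and Benjamini-Hochberg adjustment over the 13576 at 0.05. A median standard error of 0.184 log2 on a difference reflects the number of arrays. The fit was tested on simulated data. The replicate 1 term was added to the group means in a separate fit. Alternatives were quantile normalization, median centring, no filter, no trend, the β-actin covariate, a replicate block, replicate 1 left out, 6 arrays alone, each array left out, other sets of probe sets counted, and, chosen after seeing the data, the 2 arrays of highest β-actin difference left out and probe sets of several symbols added.

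Members and lists were chosen with earlier results of these data known. Genes were named by the probe set of highest mean: up to 8 called in each direction, the largest uncalled up to 4, paralogue pairs, X-linked genes, the 4 of highest and lowest SD, and up to 4 called genes of each list. Other probe sets of a gene were named after their values were seen. Replicate numbers were not taken as pairs, since same-numbered arrays did not deviate together in every pair. The shift shared by the replicate 1 arrays therefore stayed in the spread of the main fit, and counts with the replicate number as a block are given beside it.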

Additional observations from a re-analysis of the deposited data

How the results depend on the processing

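No member call changed direction under any alternative, and 6 of the 26 peptide and dose calls held under all of them and all single omissions: Rpl12 and Rpl13a at both doses, Rps24 (1455195_at) at 2 µg and Rpl22l1 at 0.2 µg. For MCC against 102S at 2 µg (15 calls) the count was 5 with quantile normalization, 7 without the filter, 6 without the intensity trend, 27 with the β-actin covariate, 3 without replicate 1 of every group, 7 without _x_at and _s_at probe sets and 24 with probe sets of several symbols. At 0.2 µg (9 calls) it was 26 with the covariate, 4 on the 6 arrays alone and 22 with several symbols. For the dose of MCC (2 calls) it was 1 with median centring, 0 without the filter, without the trend, on the 6 arrays alone and leaving out the 2 arrays with the highest β-actin excess, 6 without replicate 1 of every group and 6 with several symbols. For the dose of 102S (0 calls) it was 1 with quantile normalization and 9 with the covariate (10.1%, against 10.5% of all). It was 1 without those 2 arrays and 3 with several symbols. For replicate 1 against 2 and 3 (8 calls) it was 1 without the trend and 1 with the covariate (1.12%, against 0.228% of all). It was 3 without _x_at and _s_at probe sets and 16 with several symbols. The cause of these changes was not tested. Counts without _x_at and _s_at probe sets are out of 48 members, and those with several symbols add 97 probe sets to the 89. Of the 97 alone, 9 were called at 2 µg (9.28%, against 10.3% of all probe sets tested) and 13 at 0.2 µg (13.4%, against 14.3%). The 97 gave 4 calls for the dose of MCC (4.12%, against 1.76%) and 3 for that of 102S (3.09%, against 3.16%). For replicate 1 they gave 8 (8.25%, against 12.9%). Leaving out 1 array gave 4 to 15 calls at 2 µg, 5 to 19 at 0.2 µg, 0 to 12 for the dose of MCC, 0 to 1 for that of 102S, 0 for the interaction and 0 to 21 for replicate 1. With the replicate number as a block the counts were 21 at 2 µg (23.6%, against 18.3% of all probe sets) and 21 at 0.2 µg (23.6%, against 25.7%). They were 19 for the dose of MCC (21.3%, against 11.5%), 3 for that of 102S (3.37%, against 6.1%) and 1 for the interaction (1.12%, against 2.36%). The deviations of same-numbered arrays correlated at 0.555 to 0.822 for replicate 1, -0.287 to 0.393 for replicate 2 and 0.217 to 0.656 for replicate 3. All 6 pairs exceeded 0.1 for replicate 1 and for replicate 3, and 4 of 6 for replicate 2. The numbers thus marked a shared deviation in part, and the labels do not say whether they pair the arrays. With 3 arrays a group, differences near 0.18 log2 in a probe set of typical spread equal 1 standard error.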

Other observations

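The mitochondrial ribosomal protein genes, which serve the separate ribosome of that organelle, gave other counts than the cytosolic ones. Of 74 genes, 2 were higher and 1 lower with MCC than with 102S at 2 µg (4.05%, against 11.3% of all genes at 1 probe set each). At 0.2 µg, 8 were higher and 0 lower (10.8%, against 16.1%). Both shares lay below that of all genes, and the medians were -0.10 log2 at 2 µg and 0.22 at 0.2 µg. Mrpl45 averaged 8.76 ± 0.01 log2 after 0.2 µg of MCC and 7.26 ± 0.02 after 0.2 µg of 102S (SD, n = 3; difference 1.50 ± 0.11, SE; limma adjusted p = 3.64e-06). At 2 µg Mrpl45 averaged 8.60 ± 0.17 with MCC and 7.97 ± 0.08 with 102S, and it passed as an interaction (-0.86 ± 0.16; limma adjusted p = 0.0254), the 1 gene of the 74 that did. Mrps6 averaged 8.38 ± 0.11 log2 after 0.2 µg of MCC and 7.27 ± 0.18 after 0.2 µg of 102S (limma adjusted p = 0.000812). In replicate 1, 14 of the 74 were lower and 0 higher than in replicates 2 and 3, 18.9% against 10.6% of all genes.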
